A study of Homo sapiens with 6 samples.

Results

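ARF1 and its paralogs ARF3, ARF4, ARF5, ARF6 and ARL1 were examined in RNA that came down with the double-stranded RNA-binding protein Staufen1 (Stau1) from cells arrested in mitosis. The 6 transcripts were taken by gene symbol from the 37879 targets of the array, and each symbol had 1 target. They were not picked by a measured value, though earlier results of these data were known when they were chosen.

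The cells were HEK293T, an established line derived from human embryonic kidney, held in prometaphase with nocodazole, a drug that depolymerizes microtubules, at 50 ng/ml for 15 h by the labels. The study's methods give a longer treatment for HEK293T cells, and which time holds for these arrays is not known. In the control IP (3 arrays) the cells carried the empty vector, and in the Stau1 IP (3 arrays) they carried plasmids for Stau155-FLAG. Nocodazole and the anti-FLAG antibody were common to both groups, so the control IP measures what the antibody and beads bring down from arrested cells. The tagged protein came from a transfected plasmid, and the cells kept their own Stau1, which the antibody does not see. The labels number the replicates but do not say that they came from separate cultures, so p-values measure the spread between these arrays, which may be technical. More transcript in the cells and a larger bound share of it cannot be told apart in IP RNA alone. The paper also compared total RNA of such cells on arrays, and reports that Stau155-FLAG did not change their transcriptome to a large extent. Total RNA was not analysed here, so its values for ARF1 and the paralogs are not given.

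ADP-ribosylation factors (ARFs) are small GTPases that bind membranes when loaded with GTP and leave them after GTP hydrolysis. Exchange factors load them, GTPase-activating proteins unload them, and the GTP form recruits coats, adaptors and lipid-modifying enzymes, chiefly at the Golgi complex. The ARF1 mRNA is a classic target of Staufen-mediated decay, in which Stau1 binds a double-stranded stem in the 3′ untranslated region and recruits the helicase UPF1, after which the mRNA is degraded. The stem forms by base pairing within the ARF1 message, and binding by Stau1 is the first step of the process that an IP can see.

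Of the 37879 targets, 9884 were detected on all 6 arrays, meaning a detection p below 0.05, and 22528 were detected on none. Detection did not always follow the signal, as STAU1, at 2499 on control IP array 1, had a detection p of 0.0542 there. The 9884 targets may therefore leave out some that are expressed. The number detected ran from 11635 to 13054 per array and the median signal from 87.9 to 102. Stau1 IP array 2 stood apart from its group, and control IP array 2 was close to both groups. Over the 9884 targets, Stau1 IP array 2 correlated at 0.936 and 0.94 with Stau1 IP arrays 1 and 3, which correlated with each other at 0.996. With control IP arrays 1 to 3, Stau1 IP array 2 correlated at 0.962, 0.952 and 0.975. Control IP array 2 correlated at 0.977 and 0.982 with the other controls, and at 0.982 and 0.984 with Stau1 IP arrays 1 and 3. Control IP arrays 1 and 3 correlated with each other at 0.983, so control IP array 2 was about as near to its own group. With Stau1 IP arrays 1 and 3, control IP array 1 correlated at 0.939 and 0.94, and control IP array 3 at 0.963 and 0.962. An exchange of the 2 arrays and a true difference of these 2 IPs cannot be told apart here. Groups were kept as labelled, both arrays are given singly for ARF1, and differences are also given without them. Groups are said to lie apart or to overlap by their normalized log2 signals unless the deposited signals are named. That 4-array comparison was chosen with the standing of the 2 arrays known, so its p-values do not carry the weight of an independent test.

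For STAU1, the transfected gene, the signal was 2499, 3246 and 2758 on the control IP arrays 1 to 3 and 2845, 1857 and 3130 on the Stau1 IP arrays 1 to 3. The groups overlapped, and the normalized log2 signal was 12.69 ± 0.05 (SD, n = 3) in the control IP and 12.45 ± 0.53 (SD, n = 3) in the Stau1 IP. The positions of its 3 probes are not in the files used here, and the plasmid need not carry the sequence they read, so STAU1 does not check the labels. The mitotic markers CCNB1, PLK1, CDC20, AURKA and BUB1 were detected on all 6 arrays, as were the neurofilament genes NEFL and NEFM, which HEK293T cells express. PAX2, a renal marker, was detected on 1 array. Of 6 markers of other cell types, PTPRC, CD3E, HBB, ALB and KRT5 were detected on 0 arrays and COL1A1 on 5, at a signal of 104 to 152.

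ARF1 was the member that varied most between arrays, and it was high on a pair of Stau1 IP arrays but not on the third. ARF1 encodes the class I ARF that recruits the COPI coat and the adaptor AP-1 to Golgi membranes. Its target is on chromosome 1 and averages 3 probes. In the control IP the ARF1 signal was 2733 on array 1, 6386 on array 2 and 3153 on array 3. In the Stau1 IP it was 9534 on array 1, 3095 on array 2 and 10470 on array 3. The signal was thus high on Stau1 IP arrays 1 and 3, intermediate on control IP array 2 and low on the other 3 arrays, and the groups overlapped. The highest signal was 3.83 times the lowest, and the standard error between beads was at most 5.47% of the signal on any array.

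After normalization the mean log2 signal of ARF1 was 13.12 ± 0.47 (SD, n = 3) in the control IP and 13.85 ± 1.12 (SD, n = 3) in the Stau1 IP. The difference, 0.73 (SE 0.60, 95% confidence interval -0.79 to 2.25), is a fold of 1.66 and lay within the spread between arrays (limma, adjusted p = 0.866; exact two-sided permutation test, p = 0.4, where 3 against 3 arrays cannot go below 0.1). Its interval takes in both no difference and a fold above 2.5. ARF1 was therefore not enriched by the labels at the threshold of the study's methods, a fold over 2.5 with an unadjusted p below 0.05.

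Against control IP arrays 1 and 3, the ARF1 log2 signal of control IP array 2 differed by 0.80, and against Stau1 IP arrays 1 and 3 by -0.84, so it lay between the groups. That of Stau1 IP array 2 differed by -0.29 from control IP arrays 1 and 3 and by -1.93 from the other Stau1 IPs, so it lay nearer to those controls. With both arrays numbered 2 left out, ARF1 was 3.11-fold higher in the Stau1 IP (log2 difference 1.64, SE 0.08, 95% confidence interval 1.43 to 1.85; limma, adjusted p = 0.0115). The ratio of the mean deposited signals, with no transformation, was 3.4 in the same 4 arrays. Leaving out Stau1 IP array 2 alone gave a log2 difference of 1.37 (limma, adjusted p = 0.151).

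**Figure D1:**
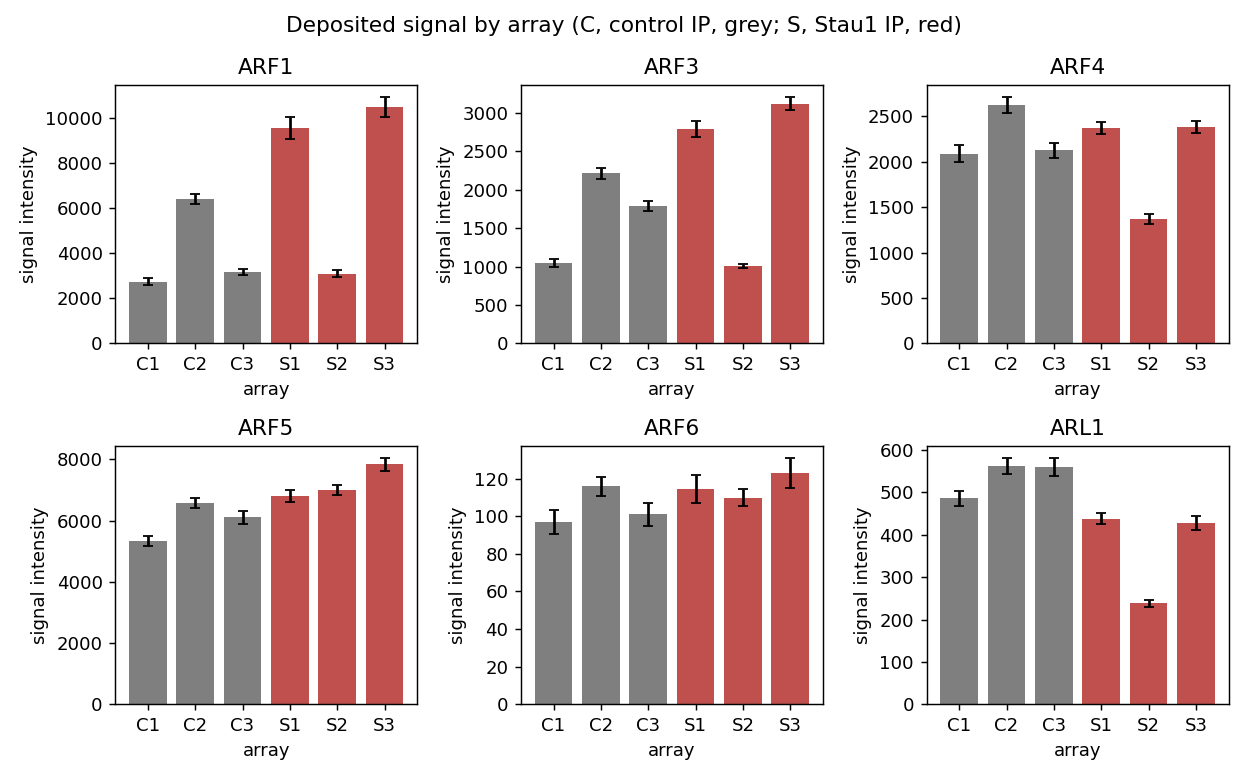
Deposited signal intensity of the 6 transcripts on each of the 6 arrays, control IP in grey and Stau1 IP in red. Bars give the signal, error bars the standard error between beads, and each panel has its own scale from 0. ARF1 and ARF3 are high on Stau1 IP arrays 1 and 3 and low on Stau1 IP array 2.

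ARF3 encodes the other class I ARF, which acts at the trans-Golgi network, and its arrays fell in a similar order. Its single-probe target is on chromosome 12. The ARF3 signal was 1046, 2210 and 1787 on control IP arrays 1 to 3. It was 2782, 1012 and 3113 on Stau1 IP arrays 1 to 3. Stau1 IP arrays 1 and 3 were again the highest, Stau1 IP array 2 was the lowest, and the groups overlapped. The log2 difference by the labels was 0.26 (SE 0.53, 95% confidence interval -1.09 to 1.6; limma, adjusted p = 0.955; exact permutation p = 0.6), and it turned to -0.05 without Stau1 IP array 1 and to -0.01 without Stau1 IP array 3. Without both arrays numbered 2, ARF3 was 1.94-fold higher in the Stau1 IP, a log2 difference of 0.95 with an interval of 0.26 to 1.64, which did not pass adjustment over all targets (limma, adjusted p = 0.163). ARF1 and ARF3 are near-identical proteins, and whether their probes read each other's transcripts could not be checked without the probe sequences.

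Of the class II members ARF4 and ARF5, which act in the early secretory pathway, ARF4 lacked this pattern. ARF5 shared only the high Stau1 IP arrays 1 and 3, at a smaller size and only after normalization. For ARF4, on chromosome 3 with 2 probes, the signal was 2090, 2625 and 2127 in the control IP and 2376, 1370 and 2384 in the Stau1 IP, in the order of arrays 1 to 3. Only Stau1 IP array 2 stood away from the rest, with a log2 difference of -0.96 from control IP arrays 1 and 3, while the control arrays spread by 0.01 (SD, n = 3). The log2 difference by the labels was -0.29 (SE 0.30, 95% confidence interval -1.04 to 0.46; limma, adjusted p = 0.894; exact permutation p = 0.7). Without both arrays numbered 2 it was 0.05, with an interval of -0.20 to 0.29.

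For ARF5, on chromosome 7 with 1 probe, the signal was 5337, 6575 and 6105 in the control IP and 6812, 6990 and 7836 in the Stau1 IP, in the same order. All 3 deposited signals of the Stau1 IP were above those of the control IP, but after normalization the groups overlapped, at 13.76 ± 0.09 and 13.93 ± 0.18 (SD, n = 3 each). Relative to the ARF5 mean, Stau1 IP arrays 1 and 3 were then the highest, at 0.21 and 0.17. Stau1 IP array 2 was at -0.13, at the level of control IP array 1, and control IP array 2 was the lowest at -0.15. The log2 difference was 0.17 (SE 0.11, 95% confidence interval -0.09 to 0.44; limma, adjusted p = 0.817; exact permutation p = 0.2), so a rise of more than 0.44 lay outside the interval. Without both arrays numbered 2 it was 0.25, with an interval of 0.06 to 0.43 (limma, adjusted p = 0.169). ARF5 was the detected member whose level varied least, with an SD of 0.16 over the 6 arrays.

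ARF6, the class III member, acts at the plasma membrane in endocytosis and actin remodelling, and its transcript was at the edge of detection. Its target on chromosome 14 has 1 probe, with signals of 96.84, 115.9 and 101 in the control IP and 114.4, 109.9 and 123 in the Stau1 IP. The detection threshold was met on no control IP array (0 of 3) and on Stau1 IP arrays 1 and 3, at detection p-values of 0.0303 and 0.0343. The measured normalized means were 8.45 ± 0.03 and 8.52 ± 0.07 (SD, n = 3 each), a log2 difference of 0.07 with a 95% confidence interval of -0.05 to 0.18 (limma, adjusted p = 0.834; exact permutation p = 0.3). Without both arrays numbered 2 it was 0.12 (limma, adjusted p = 0.274). No fold is read from a transcript not above background in the control IP, and at this signal no difference was detectable.

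ARL1, an ARF-like GTPase that recruits golgins to the trans-Golgi, was the only member whose normalized groups lay apart, with the Stau1 IP below. Its target on chromosome 12 has 1 probe. The ARL1 signal was 486.7, 562.8 and 560 in the control IP and 438.5, 238.4 and 428.2 in the Stau1 IP. Every Stau1 IP array was below every control IP array in the deposited signals too, and Stau1 IP array 2 was the lowest. The log2 difference was -0.59 (SE 0.26, 95% confidence interval -1.26 to 0.07), which did not pass the test (limma, adjusted p = 0.751; exact permutation p = 0.1, the smallest that 3 against 3 allows). Without both arrays numbered 2 it was -0.36, with an interval of -0.64 to -0.08 (limma, adjusted p = 0.186).

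These counts were read against the whole array. By the labels 1 of 37879 targets was enriched (0.00264%), 0 were depleted (0%), 0 passed an adjusted p below 0.05 in limma (0%), and 2647 had an unadjusted p below 0.05 (6.99%). With the methods' t-test, 2423 had an unadjusted p below 0.05 and 0 passed adjustment. Of the 6 members, 0 were enriched, 0 were depleted and 0 passed either form of p. Groups lay apart with the Stau1 IP above in 3.38% of the targets detected on all 6 arrays and in 0 of the 5 members so detected. They lay apart with the Stau1 IP below in 14.7% of those targets and in 1 of the 5 members, ARL1. In the 4-array comparison 252 targets were enriched (0.665%) and 15 depleted (0.0396%), and of the members ARF1 was enriched and 0 were depleted. At an adjusted p below 0.05, 3.35% of all targets were then higher and 1.51% lower in the Stau1 IP, and ARF1 was the 1 member among them. These shares count all targets, most of which lay near background. The ARF1 difference by the labels was exceeded by 1.62% of the targets detected on all 6 arrays, and by 1.27% without the arrays numbered 2.

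**Figure D2:**
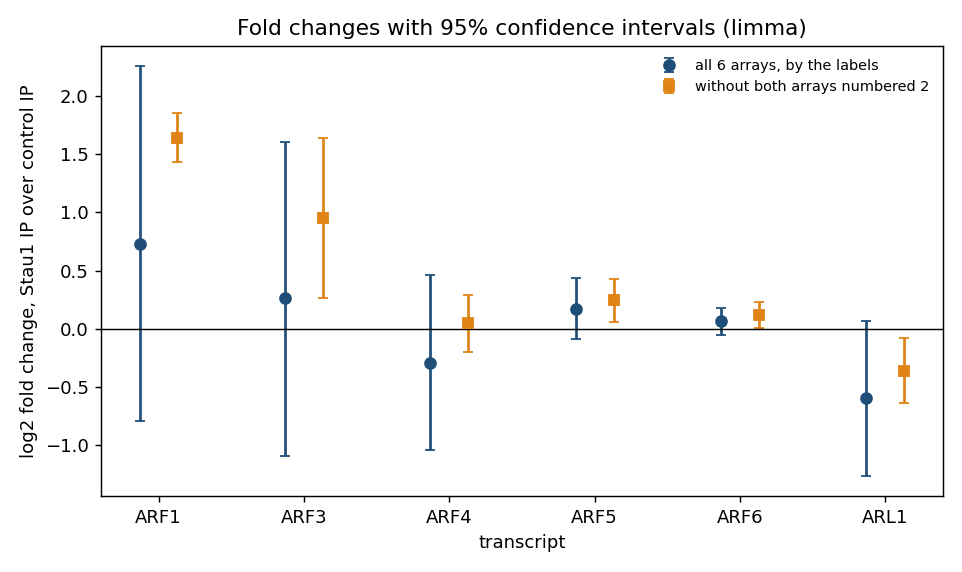
Log2 fold change of the Stau1 IP over the control IP for each transcript, by the labels with all 6 arrays (circles) and without both arrays numbered 2 (squares), with 95% confidence intervals from limma. All intervals by the labels include 0, and the ARF1 interval narrows from -0.79 to 2.25 to 1.43 to 1.85 without the arrays numbered 2.

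Since an array that is high or low as a whole moves all transcripts, ARF1 was also taken relative to each paralog on the same array, as a difference of normalized log2 signals. The difference contains the brightness of both probe sets, so only its change between arrays is read. ARF1 minus ARF3 was 1.34, 1.51 and 0.80 in the control IP and 1.77, 1.54 and 1.74 in the Stau1 IP. All 3 Stau1 IP arrays lay above all control IP arrays for this pair, with a mean difference of 0.47 (exact permutation p = 0.1; adjusted p over the 5 pairs = 0.333). The closest values were 1.51 on control IP array 2 and 1.54 on Stau1 IP array 2. ARF1 minus ARL1 was 2.38, 3.37 and 2.39 in the control IP and 4.33, 3.33 and 4.45 in the Stau1 IP. Both arrays numbered 2 lay between the other arrays of the groups for this pair, and nearly met. The mean difference was 1.32 (exact permutation p = 0.2; adjusted p = 0.333). For ARF4, ARF5 and ARF6 the mean differences were 1.02, 0.55 and 0.66, with adjusted p-values of 0.333, 0.4 and 0.4 from the same exact permutation test. With both arrays numbered 2 left out the mean differences were 0.69 for ARF3, 1.59 for ARF4, 1.39 for ARF5, 1.52 for ARF6 and 2.00 for ARL1, with no test. None of the 5 pairs could pass, as the design cannot reach a p below 0.1.

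The shape over the 6 arrays was compared after each transcript's own mean had been taken off. The SD of ARF1 over the arrays was 0.86, exceeded by 1.49% of the targets detected on all 6 arrays, whose median was 0.26. ARF3 followed with 0.69, ARL1 with 0.47 and ARF4 with 0.41. As a measure of likeness, the root mean square difference from the ARF1 profile was 0.33 for ARF3, 0.65 for ARF4, 0.68 for ARF5, 0.73 for ARF6 and 0.82 for ARL1. For ARF3, 3.39% of the detected targets lay nearer to ARF1, and for ARL1, 67.9% did. Stau1 IP array 2 was the lowest array for ARF1, ARF3, ARF4 and ARL1, and also for 52.4% of all detected targets. Stau1 IP array 1 was the highest for 5 of the 6 members, all but ARL1, and for 32% of detected targets. The part of these array-wide shifts in the members' profiles was not tested.

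Among 9879 other targets detected on all 6 arrays, the 5 nearest to ARF1 in shape lay much closer than any paralog. They were HS.551137, an expressed sequence tag on chromosome 9, at 0.046, TXNDC15, a thioredoxin-domain protein, at 0.052, FRAT2, a regulator of Wnt signaling, at 0.056, GINS4, a subunit of the replication complex GINS, at 0.074, and LRCH3 at 0.079. The FRAT2 signal was 2085, 4757 and 2518 in the control IP and 6934, 2191 and 7664 in the Stau1 IP. The TXNDC15 signal was 166, 395.3 and 186.7 in the control IP and 599.3, 143.9 and 700.1 in the Stau1 IP. Both had the order of ARF1, with Stau1 IP arrays 1 and 3 high, control IP array 2 between, and Stau1 IP array 2 among the low arrays. Log2 differences of the 5 ran from 0.63 to 0.87 by the labels and from 1.53 to 1.75 without the arrays numbered 2, and they were chosen for this likeness to ARF1.

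**Figure D3:**
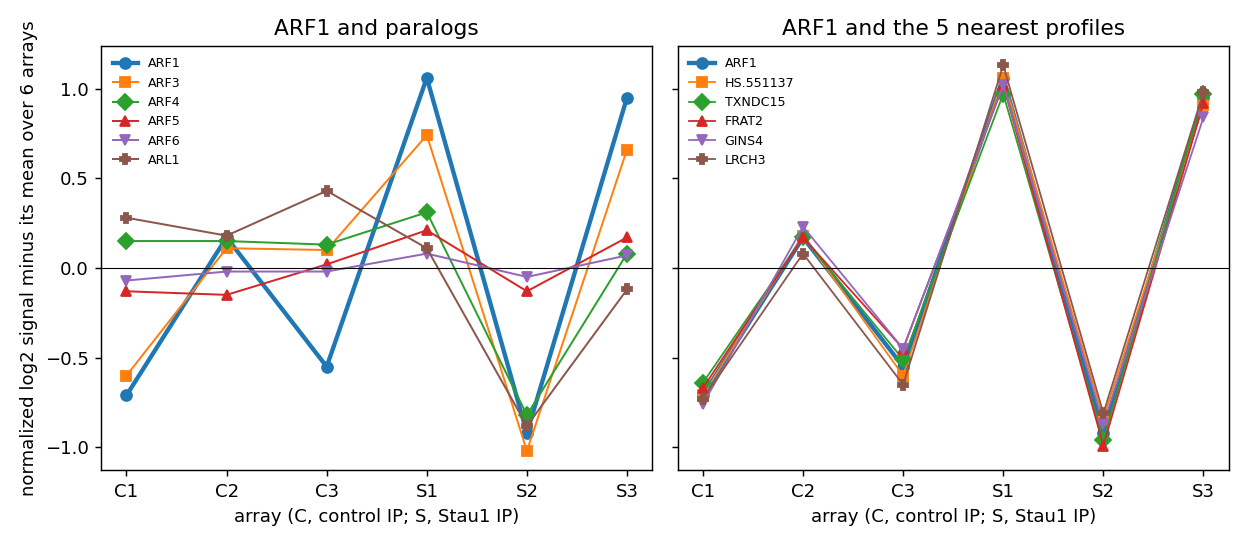
Normalized log2 signal minus its mean over the 6 arrays, for ARF1 with its paralogs (left) and for ARF1 with the 5 nearest profiles (right), with one line per target, C for control IP and S for Stau1 IP. Of the paralogs ARF3 lies nearest to ARF1, and the lines of the 5 nearest targets lie almost on the ARF1 line.

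The machinery around the ARFs was then listed by role, and none of its targets was enriched or depleted by the labels. The 5 lists hold 117 targets, of which 73 were detected on all 6 arrays. These 73 had a median log2 difference of -0.08, with 26 above 0, beside a median of -0.04 and 4129 of 9884 above 0 over all detected targets. Groups lay apart with the Stau1 IP below in 9 of the 73 and above in 1, beside 14.7% and 3.38% of all detected targets. Without the arrays numbered 2 the median was 0.07 beside 0.01 over all. In that 4-array comparison AP3S2 and AGAP3 were enriched, 2 of 117 beside 0.665% of all targets. At an adjusted p below 0.05, 9 of the 117 were higher and 2 lower, beside 3.35% and 1.51% of all targets. The 9 include AGAP3 also under its older symbol CENTG3. The listed targets were more often detected on all 6 arrays, 73 of 117 beside 9884 of 37879. These 4-array shares are thus not like for like, and no excess is read from them. The genes named are from the 2 highest and the 2 lowest of each list among targets detected on all 6 arrays, with others marked as such.

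In the rest of the ARF, ARL and SAR family, 11 of 24 targets were detected on all 6 arrays, 2 of them above 0, with a median of -0.18. ARL3, which releases lipid-modified cargo in cilia, had the highest log2 difference, 0.51 (SE 0.29), and ARFRP1, which acts upstream of ARL1 at the trans-Golgi, followed with 0.23 (SE 0.14). SAR1B, the GTPase of the COPII coat, was among the lowest at -0.32. In the 4-array comparison ARL3 was higher in the Stau1 IP by 0.95 (limma, adjusted p = 0.0378), while ARFRP1 was at 0.34 and SAR1B at -0.21 without passing.

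Of the exchange factors 10 of 16 targets were detected on all 6 arrays, with a median of -0.06 and 2 above 0. CYTH1, a cytohesin, was highest at 0.08 (SE 0.17) and IQSEC2 followed at 0.04. A separate target under PSCD1, the older symbol of CYTH1, gave -0.14 (SE 0.30), so the targets of this gene did not share a sign. It was named after its value had been seen. PSCD2, the older symbol of the cytohesin CYTH2, was at -0.16. FBXO8, which holds a Sec7 domain of the kind found in exchange factors, was lowest at -0.54 (SE 0.15), with its groups apart. With the arrays numbered 2 left out, CYTH1 was at 0.27, PSCD1 at 0.19, IQSEC2 at 0.13, PSCD2 at -0.46 and FBXO8 at -0.50. No exchange factor passed adjustment in either comparison.

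Of the GTPase-activating proteins 14 of 26 targets were detected on all 6 arrays, with a median of -0.02, and 0.24 without the arrays numbered 2. AGAP3 and ARFGAP2, which acts on ARF1 in COPI vesicles, were both at 0.81 (SE 0.41 and 0.42). In the 4-array comparison AGAP3 was higher in the Stau1 IP by 1.45 (limma, adjusted p = 0.0227), and ARFGAP2 differed by 1.32 without passing (limma, adjusted p = 0.116). A separate target under CENTG3, the older symbol of AGAP3, gave 0.33 by the labels with its groups apart and 0.46 without the arrays numbered 2, so the 2 targets of the gene differed in size. It was named after its value had been seen. SMAP2 at -0.28 and ASAP1, which acts at focal adhesions, at -0.55 (SE 0.12) were the lowest, and both had their groups apart after normalization but not in the deposited signals. Over the 4 arrays they were at -0.39 and -0.42, and neither passed adjustment.

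Of the coat and adaptor subunits 24 of 30 targets were detected on all 6 arrays, with a median of -0.03 and 10 above 0. AP3S2, a small subunit of the AP-3 adaptor, had a signal of 221.9, 687.9 and 399.5 in the control IP and 1280, 350.8 and 1306 in the Stau1 IP. Like ARF1, it was high on Stau1 IP arrays 1 and 3, between on control IP array 2 and low on Stau1 IP array 2. Its log2 difference was 0.94 (SE 0.62; limma, adjusted p = 0.832), and without the arrays numbered 2 it was 1.84 (limma, adjusted p = 0.047). AP3S1, the paralog of AP3S2 in the same adaptor, was the lowest of the list at -0.74 (SE 0.32), with the Stau1 IP below and its groups apart after normalization. In the deposited signals of AP3S1 the groups overlapped, since Stau1 IP array 3 (551.9) exceeded control IP array 3 (498.4). AP4M1 was at 0.58 and AP3B1 at -0.48. In the 4-array comparison AP4M1 was higher in the Stau1 IP by 1.09 (limma, adjusted p = 0.0213), while AP3B1 was at -0.10 and AP3S1 at -0.46 without passing. The subunits of the COPI coat itself, named after their values had been seen, did not share a direction. By the labels COPZ1 was at 0.35, COPA at 0.06, COPE and COPZ2 at 0.04, ARCN1 at -0.04, COPG at -0.12, COPG2 at -0.21, COPB2 at -0.23 and COPB1 at -0.37. Without the arrays numbered 2, COPZ1 at 0.75 (limma, adjusted p = 0.0158) and COPA at 0.46 (limma, adjusted p = 0.0193) passed, and the others ran from -0.26 for COPG to 0.18 for COPB2 without passing.

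Of the effectors, golgins and cargo receptors 14 of 21 targets were detected on all 6 arrays, with a median of -0.03 and 5 above 0. SYS1, the Golgi receptor of ARFRP1, was at 0.28 and RAB11FIP3, which binds ARF6 and Rab11 in cytokinesis, at 0.23. SCOC, a coiled-coil protein that binds ARL1, was the lowest of the 73 at -1.10 (SE 0.38; limma, adjusted p = 0.672), and after normalization every Stau1 IP array lay below every control IP array. In the deposited signals of SCOC the groups overlapped, since Stau1 IP array 3 (505.5) exceeded control IP array 3 (455). The cargo receptor TMED2 was at -0.34. Over the 4 arrays RAB11FIP3 was higher in the Stau1 IP by 0.79 (limma, adjusted p = 0.0275), whereas SYS1 at 0.80, TMED2 at -0.03 and SCOC at -0.76 did not pass.

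Other transcripts described as targets of Staufen-mediated decay gave few values. CDCP1 and IL7R were detected on 0 arrays, PAX3 on 4, and KLF2, JUN and ANKRD57, the older symbol of SOWAHC, on all 6. KLF2, a transcription factor, was at 0.14 (SE 0.17), ANKRD57 at -0.17 (SE 0.29) and JUN at -0.25 (SE 0.24), and none had its groups apart. Without the arrays numbered 2 they were at 0.36, 0.20 and -0.09, against 1.64 for ARF1, and none of the 3 passed adjustment (limma, lowest adjusted p = 0.063).

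**Figure D4:**
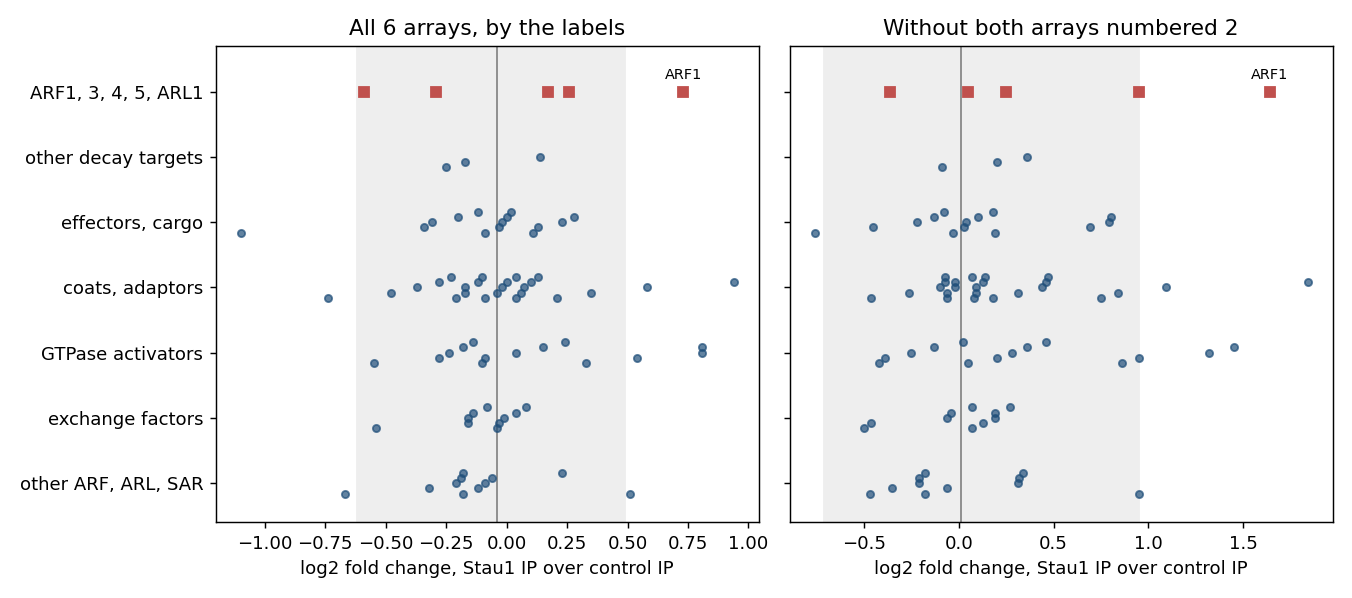
Log2 fold change of the Stau1 IP over the control IP for the 5 members detected on all 6 arrays (squares) and for each listed target so detected (dots), by the labels (left) and without both arrays numbered 2 (right). The grey band spans the 5th to 95th percentile of the 9884 detected targets, -0.62 to 0.49 on the left and -0.71 to 0.95 on the right, the grey line is their median, and ARF1 lies above the band in both.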

How the data were processed

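RNA of 3 control IPs and 3 Stau1 IPs was hybridized on 6 Illumina HumanWG-6 BeadChip arrays. The authors deposited the mean signal intensity of each target with the probes of a target combined, without background subtraction or normalization. The deposited table further gives, per target and array, the bead standard error (also an intensity), how many beads were read, and a detection p-value against the negative controls. Chromosomes are those of the deposited table. Its genome build is not given in the sources used here, and no coordinates are printed.

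From these intensities, background was estimated as the median signal of 200 mid-ranked targets (by detection p) and subtracted. Each array's bead SDs gave a variance stabilizing transformation (500 bins, lowest 33.3% of signals dropped). Robust spline normalization with 10 knots followed, with control IP array 2 as the reference array. The 4-array comparison used the same normalized values, so the arrays numbered 2 were left out of its fit but not of the normalization. Because the transformation behaves like a log2 with 117 to 161 added to the signal, changes of dim targets are understated. These steps were rebuilt in R 4.3.3 with mgcv 1.9.3, since the software of the methods was not used here. The number of arrays limits the precision.

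All 37879 targets were fitted with lmFit and eBayes of limma 3.58.1, with Benjamini-Hochberg adjustment over all of them. A call needed a fold over 2.5 and an unadjusted p under 0.05. Exact permutation tests were two-sided. The steps were also run on simulated data in which no array stood apart from its group. That run does not bear on the arrays numbered 2. Plots were drawn with Python 3.11.15 and matplotlib 3.10.9.

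Groups came from the sample labels. The members and lists were chosen with earlier results of these data known, and the arrays numbered 2 were left out together with their standing known. Named genes were the 6 members, STAU1, the 2 highest and 2 lowest of each list among targets detected on all 6 arrays, and the 5 targets nearest to ARF1. Some of the genes this rule takes are not reported here. Alternatives were neqc, no background subtraction, plain log2, quantile normalization, median centring, no normalization between arrays, a detection filter of 3 arrays, blocking on the replicate number, trended eBayes, the methods' t-test, a fold of 2, and leaving out arrays.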

Additional observations from a re-analysis of the deposited data

How the results depend on the processing

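The direction and call of ARF5 (0.11 to 0.31) and ARL1 (-0.79 to -0.20) held under every alternative run. ARF6 ran from 0.01 to 0.19 without a call and was absent under the detection filter. No direction is read from ARF6 at its signal. ARF1 ranged from 0.38 to 1.64 over 17 alternatives (limma, adjusted p from 0.0115 to 0.995), from 0.38 to 1.37 with single arrays left out, and came past the threshold without Stau1 IP array 2 and, at 1.64, without both arrays numbered 2. Without normalization between arrays ARF1 gave 0.83, at a fold below 2.5. The p-value there (limma, adjusted p = 0.0171) rests on nearly the same error for every member, not on ARF1's own spread. It therefore does not show a difference beyond that spread, and the count of enriched targets in this setting has the same limit. ARF3 ranged from -0.05 to 0.83 with single arrays left out and turned negative without Stau1 IP array 1 or 3. ARF4 ranged from -0.52 to 0.05 in the same way, turning positive without Stau1 IP array 2, and was 0.05 without both arrays numbered 2. The cause was not tested.

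Against 1 enriched target by the labels, neqc gave 3, no normalization between arrays 14, the methods' t-test 0 (2423 targets at any fold with an unadjusted p under 0.05, 0 after Benjamini-Hochberg adjustment), both arrays numbered 2 left out 252, and single arrays left out 0 to 142, the last without Stau1 IP array 2. Against 0 depleted targets, neqc gave 6, a 2-fold threshold 25, both arrays numbered 2 left out 15, and single arrays left out 0 to 7. With the replicate block 0 targets were enriched and ARF1 stayed at 0.73 (limma, adjusted p = 0.974). Centred on their groups, arrays of one number had correlations of -0.45, -0.75 and -0.36 with each other. Deviations within a group cancel, so the arrays numbered 2 weigh on all 3 values. These values therefore cannot decide whether arrays of one number were paired. Signal over background limits ARF6, and 3 arrays per group limit the rest.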
